A study of Homo sapiens with 24 samples.

Results

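The genes described here are 44 named genes of ribosome biogenesis and the nucleolus, measured by RNA sequencing in A375 cells, an established human melanoma line. They were taken by gene symbol from the 2 count tables of the series, which hold 28008 and 60221 genes, and all 44 were found and tested in both. Every group was transfected with a pcDNA3.1 plasmid that has a CAG promoter and a puromycin resistance gene, and was then selected with puromycin at 2 µg/mL for 48 h. The plasmid held no insert (empty vector), full-length SLNCR (FL), a long noncoding RNA studied in melanoma, or SLNCR without one of its triplex-forming regions (TFR), stretches thought to pair with the DNA double helix. Batch 1 has 3 libraries each of empty vector, FL, SLNCR without TFR 1 (ΔTFR1) and SLNCR without TFR 2 (ΔTFR2). Batch 2 has 3 each of empty vector, FL, SLNCR without TFR 4 (ΔTFR4) and SLNCR without TFR 5 (ΔTFR5). The design calls the 3 libraries of a condition biological replicates. All of them come from 1 cell line, which also expresses SLNCR of its own.

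Ribosomes are built in the nucleolus, where RNA polymerase I transcribes a long precursor of ribosomal RNA. Small nucleolar ribonucleoproteins (snoRNPs) modify that RNA, and large sets of assembly factors fold it, cut it and join it to ribosomal proteins to make the small and the large subunit. Many of these genes are targets of the transcription factor MYC, which binds the E-box sequence CACGTG, and growing cancer cells express them strongly. By role, the 44 comprise 7 genes of ribosomal RNA transcription and the nucleolar scaffold, 4 of box C/D snoRNPs, which guide methylation, 4 of box H/ACA snoRNPs, which guide pseudouridylation, 12 of small subunit assembly and 17 of large subunit assembly.

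Some sequence motifs were more frequent at the start sites of these genes than at those of all genes, though most windows lacked the E-box. RefSeq promoter windows of GRCh38.p14, from 250 bases before to 50 bases after a start site, matched 35 of the 44 genes and gave 42 windows. The E-box CACGTG, which reads the same on both strands, lay in 17 of the 42 windows (40.5%) and 17 genes, against 7.3% of the 35116 windows of all genes and 8.3% of the 22199 of coding genes. CCGGAAG, a core recognised by ETS factors, stood on either strand in 16 windows (38.1%) and 15 genes, against 10.3% of all windows and 12.8% of coding ones. GGGCGG, the GC box bound by SP1, stood on either strand in 28 windows (66.7%) and 25 genes. All windows had it in 45.0% and those of coding genes in 56.3%, which is nearer to the share here. TATAAA, searched on both strands, was in 1 window, that of UTP20 (2.4%, against 11.5% of all windows and 9.5% of coding ones). A match describes letters and no binding. In each of the 17 genes an E-box began between 31 bases before (DDX21) and 35 bases after (NOP2) the start site. The 100 bases from 70 before the start site are printed for 5 genes with an E-box near the start and for NOP56 and NCL, whose windows hold none, because these genes return in the comparisons. The E-box is in capitals, and each sequence runs 5′ to 3′ on the strand of the gene.
UTP20: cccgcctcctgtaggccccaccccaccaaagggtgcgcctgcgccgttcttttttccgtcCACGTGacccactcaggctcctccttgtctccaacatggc
DDX21: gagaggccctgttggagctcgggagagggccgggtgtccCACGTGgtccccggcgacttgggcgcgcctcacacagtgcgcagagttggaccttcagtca
GNL3: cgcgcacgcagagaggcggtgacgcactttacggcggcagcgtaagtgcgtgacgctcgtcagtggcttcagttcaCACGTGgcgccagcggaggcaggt
RRP9: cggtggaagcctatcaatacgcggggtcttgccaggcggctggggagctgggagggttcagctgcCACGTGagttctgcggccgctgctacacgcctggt
PWP2: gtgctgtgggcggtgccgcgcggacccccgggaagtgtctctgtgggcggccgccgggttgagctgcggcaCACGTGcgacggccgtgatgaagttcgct
NOP56: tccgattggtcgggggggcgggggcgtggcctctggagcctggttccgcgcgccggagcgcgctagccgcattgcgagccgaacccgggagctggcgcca
NCL: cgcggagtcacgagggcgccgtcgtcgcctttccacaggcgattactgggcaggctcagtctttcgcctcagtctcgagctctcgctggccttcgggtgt
These are chr12:101280035-101280134, chr10:68956577-68956676, chr3:52685962-52686061, chr21:44107329-44107428 and chr20:2652562-2652661 on the plus strand, and chr3:51941875-51941974 and chr2:231464455-231464554 on the minus strand. With the start site as 0, the E-box begins at -10 in UTP20, -31 in DDX21, 6 in GNL3, -5 in RRP9 and 1 in PWP2.

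Libraries held 8627449 to 10789211 counts in batch 1 and 24810090 to 33063293 in batch 2, and the biological coefficient of variation was 0.0503 and 0.212. SLNCR read 18.9 to 20.8 CPM (counts scaled to a common library size) with empty vector and 165.1 to 239.9 in the SLNCR groups of batch 1. In batch 2 it was read from the gene named LINC00511, which in GENCODE 29 spans the SLNCR locus. There it was 27.9 to 30.1 CPM with empty vector and unequal in the SLNCR groups. It read 728.1, 658.3 and 334.1 CPM with FL, 443.9 to 515.1 with ΔTFR4 and 191.6 to 375.7 with ΔTFR5. The labels call the cells epithelial. In batch 1 the epithelial genes KRT8 (126.1 to 182.3 CPM) and KRT18 (287.5 to 400.8 CPM) were well counted and EPCAM did not exceed 0.459 CPM, and of the melanocyte lineage MITF read 74.4 to 101.2 CPM and TYR was at 0. SOX10, also of that lineage, read 10.9 to 17.2 CPM in batch 1, and PMEL, MLANA, DCT and S100B did not exceed 2.99 CPM. CDH1, KRT5, KRT14 and KRT19, also epithelial, did not exceed 0.644 CPM there. In batch 2 KRT8 read 59.1 to 169.4 CPM, KRT18 227.6 to 522.5, MITF 55.8 to 198 and SOX10 43.9 to 77.9. The other epithelial markers did not exceed 5.85 CPM and the other melanocyte markers 1.64 CPM.

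**Figure D1:**
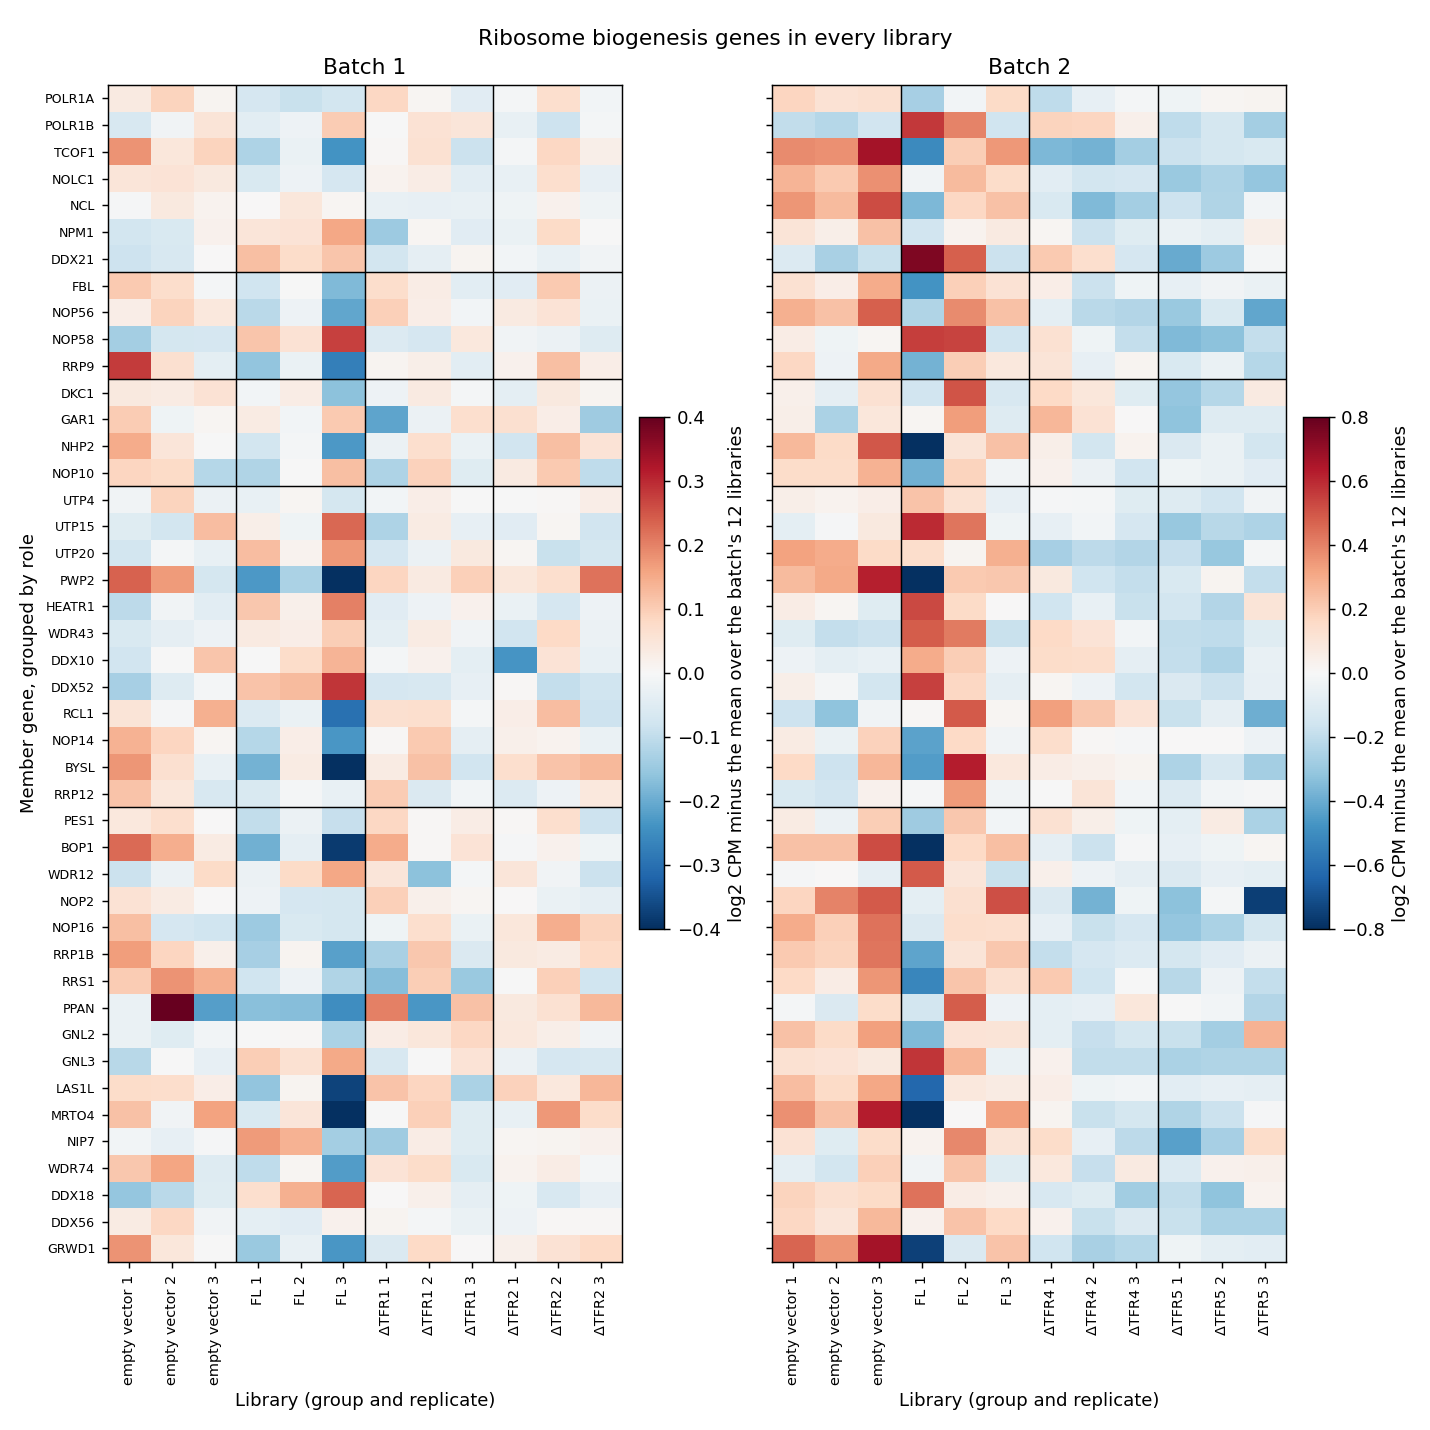
Level of each of the 44 genes in each of the 24 libraries, as log2 CPM minus the mean of the gene over the 12 libraries of its batch (red above, blue below; the colour scale ends at 0.4 in batch 1 and 0.8 in batch 2, and values beyond it take the end colour). Rows are genes by role and columns are libraries by group and replicate; in batch 2 the ΔTFR5 columns are mostly blue, with 35 to 43 of the 44 genes below their mean, and the empty vector columns mostly red, with 8 to 18 below.

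All 44 genes were well counted. The lowest count in any library was 64 in batch 1, for PPAN, and 368 in batch 2, for PWP2. In batch 1 the highest of the 12 libraries exceeded the lowest 1.06-fold for NCL and 1.7-fold for PWP2, with a median of 1.24-fold over the 44. In batch 2 the same ratio ran from 1.3 for UTP4 to 3.16 for PWP2, with a median of 1.71, and exceeded 2 for 9 genes. CPM is not per length, so levels are compared below within a gene only. Counting by strand is not stated in the sources used here, 17 of the 44 overlap another coding gene (GNL3 overlaps GLT8D1 and PBRM1), and NPM1 has 45 named pseudogenes in GENCODE 29, so reads of neighbours or copies may enter these counts.

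The highest counted gene of each role shows the spread between libraries. NPM1, the abundant nucleolar chaperone nucleophosmin, read 1961.5, 1980.1 and 2089.5 CPM with empty vector in batch 1, 2134.6, 2147.0 and 2297.6 with FL, 1866.9, 2077.7 and 2000.9 with ΔTFR1 and 2026.2, 2177.6 and 2065.3 with ΔTFR2. Its 3 FL libraries lay above all empty vector and all ΔTFR1 libraries, and overlapped with ΔTFR2. In batch 2 NPM1 read 1530.3, 1468.0 and 1672.9 CPM with empty vector, 1280.3, 1450.8 and 1496.3 with FL, 1440.2, 1260.2 and 1332.4 with ΔTFR4 and 1372.5, 1349.8 and 1467.1 with ΔTFR5. Every deletion library lay below the empty vector there, the third ΔTFR5 library by under 1 CPM, while FL overlapped with all groups. DKC1, the pseudouridine synthase of box H/ACA snoRNPs, read 293.4, 291.9 and 296.8 CPM with empty vector, 283.2, 291.1 and 254.7 with FL, 281.3, 292.7 and 283.5 with ΔTFR1 and 277.5, 293.2 and 287.4 with ΔTFR2 in batch 1. The FL libraries lay below every empty vector library, the second by under 1 CPM. In batch 2 DKC1 read 192.6, 177.7 and 203.5 CPM with empty vector, 168.3, 265.1 and 171.6 with FL, 209.3, 199.5 and 175.1 with ΔTFR4 and 150.9, 159.7 and 196.6 with ΔTFR5. The second FL library stood highest and the groups overlapped. NOP56, HEATR1 and DDX18, the highest of the other roles, follow with the comparisons.

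Full-length SLNCR was compared with empty vector in batch 1 to ask which genes the transcript changes. Of the 44 genes, 20 were called, 8 higher and 12 lower. A gene is called at an adjusted p under 0.05 in edgeR's quasi-likelihood test with Benjamini-Hochberg adjustment over all genes tested, and changes are log2 fold changes ± standard error (SE) from 3 libraries a group. The share called was 45.5%, against 22.7% of the 14310 genes tested, 11.4% higher and 11.3% lower. The FL libraries lay above all empty vector libraries for 9 of the 44 (17.9% of all genes) and below them for 15 (18.7%). The median change was -0.085 over the 44 and -0.016 over all genes. Changes were small, from -0.40 ± 0.12 for PWP2 to 0.25 ± 0.05 for DDX18, which is 0.76 and 1.19 times the empty vector level. By role, 3 of 7 transcription and scaffold genes were called (2 higher), 3 of 4 box C/D genes (1 higher), 1 of 4 box H/ACA genes (lower), 6 of 12 small subunit genes (3 higher) and 7 of 17 large subunit genes (2 higher).

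The 8 genes that rose were DDX18, NOP58, DDX52, HEATR1, DDX21, GNL3, NPM1 and UTP20. DDX18, an RNA helicase of large subunit assembly, read 214.3, 221.4 and 230.9 CPM with empty vector and 249.9, 263.3 and 280.3 with FL (0.25 ± 0.05, adjusted p = 0.000956). NOP58, a core protein of box C/D snoRNPs, read 174.5, 182.3 and 182.9 with empty vector and 206.7, 199.6 and 231.4 CPM with FL (0.24 ± 0.05, adjusted p = 0.00192). DDX52, a helicase of the small subunit, read 98.3, 104.0 and 107.4 against 116.7, 117.9 and 131.5 CPM (0.24 ± 0.06, adjusted p = 0.0035). In all of them the lowest FL library lay above the highest empty vector library, and the third FL library was the highest. HEATR1, a scaffold of the small subunit processome, read 495.4, 528.3 and 518.2 CPM with empty vector and 574.4, 540.6 and 612.8 with FL (0.16 ± 0.04, adjusted p = 0.00894). DDX21, a helicase of polymerase I transcription and RNA processing, read 513.6, 520.7 and 545.1 against 591.4, 572.9 and 587.7 CPM (0.15 ± 0.04, adjusted p = 0.00902). GNL3, the GTPase nucleostemin, read 201.5, 217.6 and 212.7 against 233.0, 227.2 and 242.0 CPM (0.15 ± 0.05, adjusted p = 0.0192). The groups did not overlap for any of the 8.

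The 12 genes that fell were BOP1, TCOF1, GRWD1, RRP9, RRP1B, NOP56, PWP2, RRS1, NOP14, LAS1L, NHP2 and BYSL. BOP1, a partner of PES1 and WDR12 in large subunit assembly, read 144.4, 136.5 and 126.2 CPM with empty vector and 107.9, 120.4 and 94.6 with FL (-0.33 ± 0.07, adjusted p = 0.00124). TCOF1, the nucleolar phosphoprotein treacle that supports polymerase I transcription, read 377.2, 343.8 and 354.5 against 306.0, 327.2 and 282.2 CPM (-0.23 ± 0.05, adjusted p = 0.00224). GRWD1, a nucleolar protein with WD repeats, read 152.3, 138.9 and 134.3 against 121.3, 131.8 and 114.5 CPM (-0.21 ± 0.06, adjusted p = 0.0095). In these the third FL library was the lowest and the second FL library the nearest to empty vector. RRP9, a protein of the U3 snoRNP, read 67.3, 58.0 and 53.9 against 49.7, 54.4 and 45.9 CPM (-0.25 ± 0.08, adjusted p = 0.0158). RRP1B, a nucleolar processing factor, read 151.6, 143.4 and 136.9 against 123.1, 136.0 and 116.1 CPM (-0.20 ± 0.06, adjusted p = 0.0168). NOP56, the partner of NOP58 in box C/D snoRNPs, read 221.3, 230.9 and 223.8 against 201.4, 214.0 and 188.2 CPM (-0.16 ± 0.05, adjusted p = 0.0174). RRP9, NOP14 and BYSL overlapped, because their second FL library lay above the third empty vector library, and the other 9 did not overlap. NOP56 and NOP58, which sit in the same particle, were called in opposite directions.

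The direction of a call went with base composition. The 8 genes that rose had a GC content of 39.91 to 43.29% in their longest GENCODE 29 transcript, and the 12 that fell had 50.57 to 65.22%. Spearman's rho between change and GC content was -0.85 over the 44 genes and -0.68 over the 13475 tested genes with a value, in both cases across genes, which share the libraries and do not count as independent replicates. Each library had a trend of its own: rho between the deviation of a gene from its mean over the batch and its GC content was -0.60 to -0.37 in the 3 FL libraries and 0.03 to 0.52 in the other 9. With the GC trend of each library removed, edgeR called 0 of the 44 genes and 2.32% of all genes. An unadjusted p under 0.05 was met by 11 of the 44 and by 2382 of the 14310 genes tested. The change of DDX18 was then 0.11 (adjusted p = 0.146), that of BOP1 -0.06 (adjusted p = 0.516) and that of TCOF1 -0.09 (adjusted p = 0.223). DESeq2 without such a step called 16 of the 44, 8 in each direction, and 17.4% of all genes. The count was 5 without the first empty vector library (8.17% of all genes), 10 without the second (13.4%), 11 without the first FL library (15.8%) and 9 without the third (11.9%). The median of the 44 was -0.042 with the GC trend removed. The epithelial markers, as a sum of 7 genes, also differed, at 525.4 to 584.1 CPM with empty vector and 414.5 to 469.3 with FL. Nearly all of that sum was KRT8 and KRT18, with the other markers of the list at or below 0.644 CPM. The part of these markers in the result was not tested. DDX18, BOP1, NOP58, TCOF1 and DDX52 stayed called whichever of the 6 libraries was left out.

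**Figure D2:**
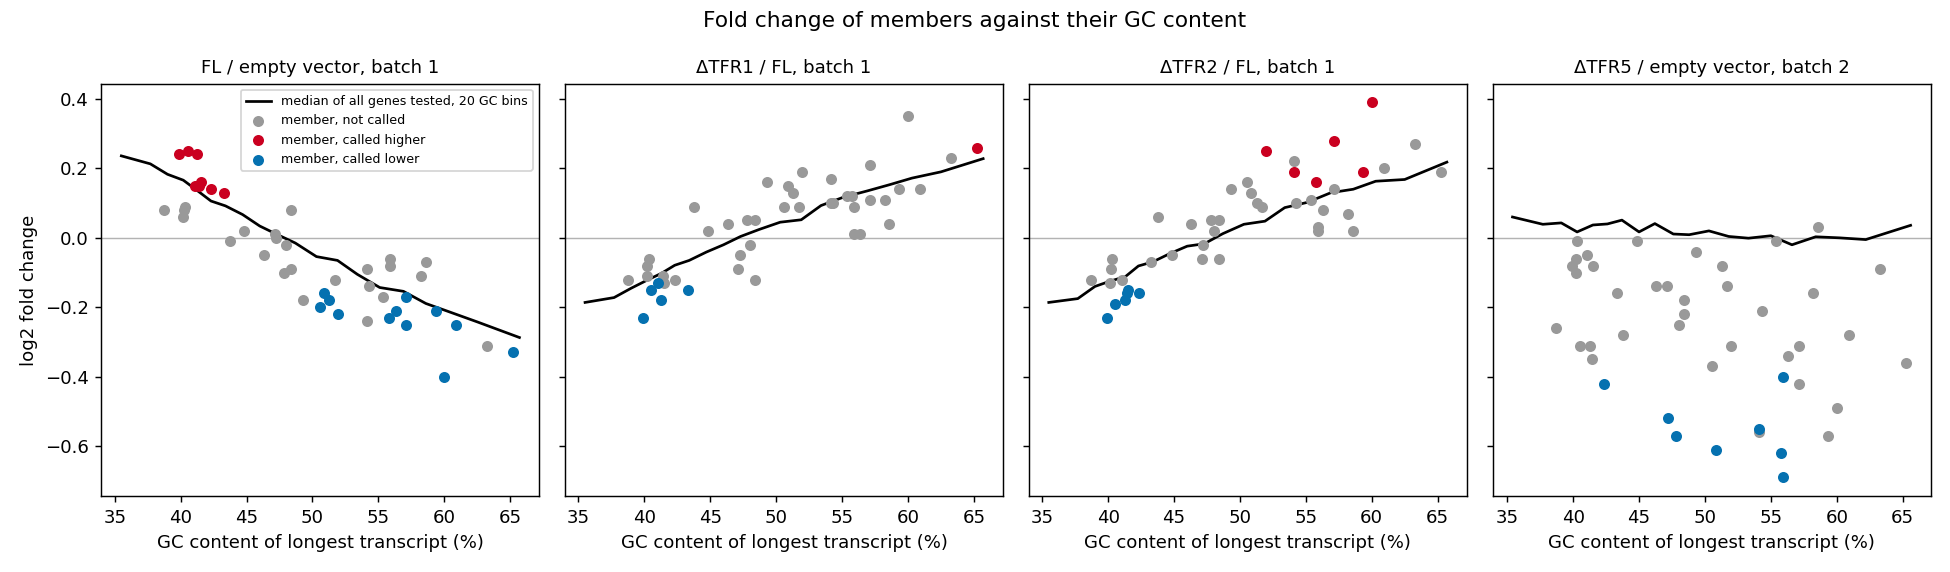
Log2 fold change of the 44 genes (vertical axis) against the GC content of the longest transcript in percent (horizontal axis) in 4 comparisons; red and blue points are genes called higher and lower, grey points are not called, and the line is the median of all tested genes in 20 bins of GC content. In the 3 comparisons of batch 1 the points slope with the line (rho -0.85, 0.81 and 0.83 over the 44), and for ΔTFR5 against empty vector in batch 2 the line is flat (rho -0.02 over all genes) and 43 of the 44 points lie below 0.

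ΔTFR1 was set against FL in batch 1 to ask what the missing region contributes. This comparison, that of ΔTFR2 with FL and that of FL with empty vector share the 3 FL libraries. Of the 44 genes 6 were called, 1 higher and 5 lower, where 10.1% of all genes were, 4.4% higher and 5.66% lower. ΔTFR1 lay above FL in all libraries for 9 of the 44 (15.1% of all genes) and below it for 8 (13.8%). The median change was 0.049 over the 44 and 0.022 over all genes. The FL values are those given above. DDX52 read 102.9, 103.3 and 105.4 CPM with ΔTFR1 (-0.23 ± 0.06, adjusted p = 0.0144). BOP1 read 136.6, 123.7 and 128.0 CPM (0.26 ± 0.07, adjusted p = 0.0161). NPM1 had -0.15 ± 0.04, adjusted p = 0.0302. BOP1 rose and the others fell, with no overlap between the groups. NOP58 read 184.3, 183.0 and 197.1 CPM (-0.18 ± 0.05, adjusted p = 0.0305). DDX21 read 517.3, 530.6 and 548.8 CPM (-0.13 ± 0.04, adjusted p = 0.0342). DDX18 read 238.7, 241.8 and 232.6 CPM (-0.15 ± 0.05, adjusted p = 0.0367). These 3 fell without overlap too. The 5 genes that fell had 39.91 to 43.29% GC and BOP1 had 65.22%. With the GC trend of each library removed, edgeR called 0 of the 44 and 0.119% of all genes. An unadjusted p under 0.05 was met by 7 of the 44 and by 1841 of the 14310 genes tested. The median of the 44 was then 0.007, and it was 0.014 without the second ΔTFR1 library and 0.025 without the third FL library. The count was 0 without the first ΔTFR1 library (0.152% of all genes), 1 without the third FL library (1.95%) and 15 without the second FL library (19.0%).

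ΔTFR2 against FL called 12 of the 44 genes, 6 in each direction, where 10% of all genes were called, 4.86% higher and 5.15% lower. ΔTFR2 lay above FL in all libraries for 11 of the 44 (15.3% of all genes) and below it for 7 (14.4%). The median change was 0.051 over the 44 and 0.01 over all genes. The 6 that fell were DDX52, DDX18, NOP58, HEATR1, GNL3 and UTP20. DDX52 read 108.3, 101.1 and 102.1 CPM with ΔTFR2 (-0.23 ± 0.06, adjusted p = 0.0144). DDX18 read 236.0, 228.2 and 233.2 CPM (-0.19 ± 0.05, adjusted p = 0.0159). NOP58 read 189.8, 188.7 and 185.0 CPM (-0.18 ± 0.05, adjusted p = 0.0291). The ΔTFR2 libraries of each lay close together, under every FL library. HEATR1 read 523.0, 508.5 and 525.2 CPM (-0.15 ± 0.04, adjusted p = 0.0317), beside 516.5, 525.5 and 539.9 with ΔTFR1. GNL3 read 214.3, 207.9 and 208.1 CPM (-0.16 ± 0.05, adjusted p = 0.0337). UTP20, a large scaffold protein of the small subunit, read 217.5, 203.4 and 206.2 beside 235.9, 218.5 and 244.0 CPM with FL (-0.16 ± 0.05, adjusted p = 0.0401). These also fell without overlap.

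The 6 genes that rose with ΔTFR2 against FL were LAS1L, GRWD1, PWP2, BYSL, TCOF1 and NOP16. LAS1L, part of the complex that cuts the precursor of the large subunit, read 77.6, 75.0 and 79.9 CPM with ΔTFR2 and 65.3, 73.4 and 56.3 with FL (0.25 ± 0.07, adjusted p = 0.0337). GRWD1 read 136.3, 140.1 and 142.2 CPM with ΔTFR2 (0.19 ± 0.06, adjusted p = 0.0381). TCOF1 read 331.3, 352.9 and 338.4 CPM (0.16 ± 0.05, adjusted p = 0.0441). In all of them the second FL library was the FL library nearest to ΔTFR2. PWP2, a core protein of the small subunit processome, read 14.3, 14.5 and 16.1 beside 11.8, 12.7 and 9.6 CPM with FL (0.39 ± 0.12, adjusted p = 0.0412). BYSL, a late small subunit factor, read 38.2, 39.5 and 39.9 beside 32.0, 37.3 and 27.0 CPM (0.28 ± 0.09, adjusted p = 0.0428). NOP16, a nucleolar protein of the large subunit, read 94.5, 101.4 and 97.5 beside 82.9, 87.9 and 87.3 CPM (0.19 ± 0.06, adjusted p = 0.0469). The groups did not overlap in any of the 6. The genes that fell had 39.91 to 42.33% GC and those that rose 51.95 to 60.01%. With the GC trend of each library removed, edgeR called 0 of the 44 and 0.175% of all genes. An unadjusted p under 0.05 was met by 9 of the 44 and by 1912 of the 14310 genes tested. DESeq2 called 7, all lower (6.67% of all genes), and edgeR with relative log expression factors 4 higher and 7 lower (10.0%). The median of the 44 was 0.009 with the GC trend removed, 0.018 without the second ΔTFR2 library and 0.029 without the third FL library. The count was 0 without the third FL, the second ΔTFR2 or the third ΔTFR2 library (1.28%, 0.0% and 2.83% of all genes). It was 4 without the first ΔTFR2 library (4.62%), 3 without the first FL library (5.32%) and 20 without the second FL library (18.7%).

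ΔTFR1 and ΔTFR2 were also compared with empty vector and with each other. edgeR and DESeq2 called 0 of the 44 genes in these 3 comparisons, and each of the tools called 0.00699%, 0.014% and 0% of all genes. At an unadjusted p under 0.05 edgeR had 3 of the 44 for ΔTFR1 against empty vector (4.12% of all genes), 1 for ΔTFR2 against empty vector (4.17%) and 0 for ΔTFR2 against ΔTFR1 (3.85%). The medians of the 44 were -0.033, -0.03 and 0.003, beside 0.002, -0.001 and 0 over all genes. RRS1, a factor that helps bring the 5S particle to the large subunit, had the lowest p with ΔTFR1, at 70.6, 85.1 and 71.7 CPM beside 85.2, 90.0 and 87.7 with empty vector (-0.21 ± 0.07, adjusted p = 0.992). Its groups met without overlapping.

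In batch 2, FL against empty vector called 0 of the 44 genes with edgeR, where 1.16% of the 18763 genes tested were called. An unadjusted p under 0.05 was met by 11 of the 44 (26.3% of all genes), 5 higher (16.3%) and 6 lower (9.95%). DESeq2 called POLR1B and GRWD1 (9.87% of all genes), and edgeR with the GC trend removed called GRWD1 (4.08%). GRWD1 read 111.6, 103.3 and 128.3 CPM with empty vector and 48.1, 74.7 and 94.6 with FL (-0.66 ± 0.19, adjusted p = 0.0748). POLR1B, the second largest subunit of RNA polymerase I, read 119.3, 116.5 and 122.8 against 202.3, 179.8 and 122.4 CPM (0.49 ± 0.15, adjusted p = 0.0852). DDX21 read 416.2, 374.8 and 397.2 against 753.7, 625.6 and 398.5 CPM (0.58 ± 0.19, adjusted p = 0.0998). The first and second FL libraries held the high POLR1B and DDX21 values, and the third lay within the empty vector range. SLNCR read 728.1 and 658.3 CPM in the first and second and 334.1 in the third, and its part in this was not tested. The median change was -0.099 over the 44 and 0.02 over all genes. That of the 44 was -0.008 without the first FL library, -0.176 without the second, -0.066 without the third empty vector library and -0.009 with the GC trend removed. The first FL library stood apart, with a GC trend of -0.54 where the other 11 libraries had -0.13 to 0.28, and it held the lowest value of the batch for PWP2 (11.1 CPM), BOP1 (41.7 CPM) and MRTO4 (25.2 CPM). Without the third FL library 13 of the 44 were called, 6 higher and 7 lower, where 30.7% of all genes were called.

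Against FL, the batch 2 deletions called none of the 44 genes with edgeR: 0 for ΔTFR4, where 4.36% of all genes were called, and 0 for ΔTFR5, where 1.38% were. An unadjusted p under 0.05 was met by 10 genes for ΔTFR4 and 17 for ΔTFR5 (23% and 20.8% of all genes), all of them lower in the deletion (12.9% and 11.9% of all genes). The medians of the 44 were -0.125 and -0.227, beside -0.023 and -0.016 over all genes. Without the second FL library they were -0.05 and -0.109, and without the first -0.214 and -0.309. DESeq2 called UTP15 and UTP20 for ΔTFR4 (10.1% of all genes) and 7 genes for ΔTFR5 (7.54%), and edgeR with the GC trend removed called TCOF1, NOP2 and DDX56 for ΔTFR4 (7.56%) and 8 genes for ΔTFR5 (4.61%), all lower. UTP20 read 83.2, 86.3 and 85.0 CPM with ΔTFR4 and 110.1, 101.6 and 121.5 with FL (-0.39 ± 0.11, adjusted p = 0.0646), without overlap. UTP15, of the subcomplex that links polymerase I transcription to processing, read 55.7, 57.3 and 53.1 with ΔTFR4 beside 88.0, 78.4 and 56.8 CPM with FL (-0.43 ± 0.14, adjusted p = 0.0983). GNL3 read 153.0, 129.9 and 129.9 beside 222.0, 179.3 and 143.9 CPM (-0.40 ± 0.14, adjusted p = 0.114). For UTP15 and GNL3 the third FL library was the lowest of FL and the one that lay under a ΔTFR4 library. With ΔTFR5, UTP15 read 47.2, 49.8 and 49.1 CPM (-0.61 ± 0.14, adjusted p = 0.0534). NOLC1, a nucleolar chaperone of snoRNPs, read 262.0, 270.9 and 259.9 beside 315.9, 384.2 and 355.9 CPM with FL (-0.41 ± 0.10, adjusted p = 0.0647). NOP58 read 96.0, 97.5 and 107.4 beside 180.1, 178.5 and 109.6 CPM (-0.64 ± 0.17, adjusted p = 0.0696). None of them overlapped with FL. Without the third FL library 8 and 13 of the 44 were called (11.4% and 17.9% of all genes), without the first 5 and 6 (8.88% and 3.1%), and without the second 1 and 0 (8.11% and 0.936%), each of them lower.

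Beside empty vector, genes of the set fell with ΔTFR4 and with ΔTFR5, and edgeR called none higher in the fit over all 12 libraries. For ΔTFR4 7 of 44 fell (15.9%), where 23.9% of all genes were called, 12.5% higher and 11.4% lower. For ΔTFR5 8 of 44 fell (18.2%), where 10.2% of all genes were called, 5.48% higher and 4.68% lower. The medians of the 44 were -0.191 and -0.267, beside 0.017 and 0.022 over all genes. With ΔTFR4 10 of the 44 had a change above 0 (51.2% of all genes), and with ΔTFR5 RRP12 alone had (0.03 ± 0.12, adjusted p = 0.9), where 52.1% of all genes did. The 3 ΔTFR5 libraries lay below all empty vector libraries for 26 genes (21.8% of all genes) and above them for 0 (22.8%). The ΔTFR4 libraries lay below for 23 (27.5%) and above for 3, POLR1B, WDR43 and RCL1 (29.2%). Both comparisons use the same empty vector libraries, so their likeness is no separate result.

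**Figure D3:**
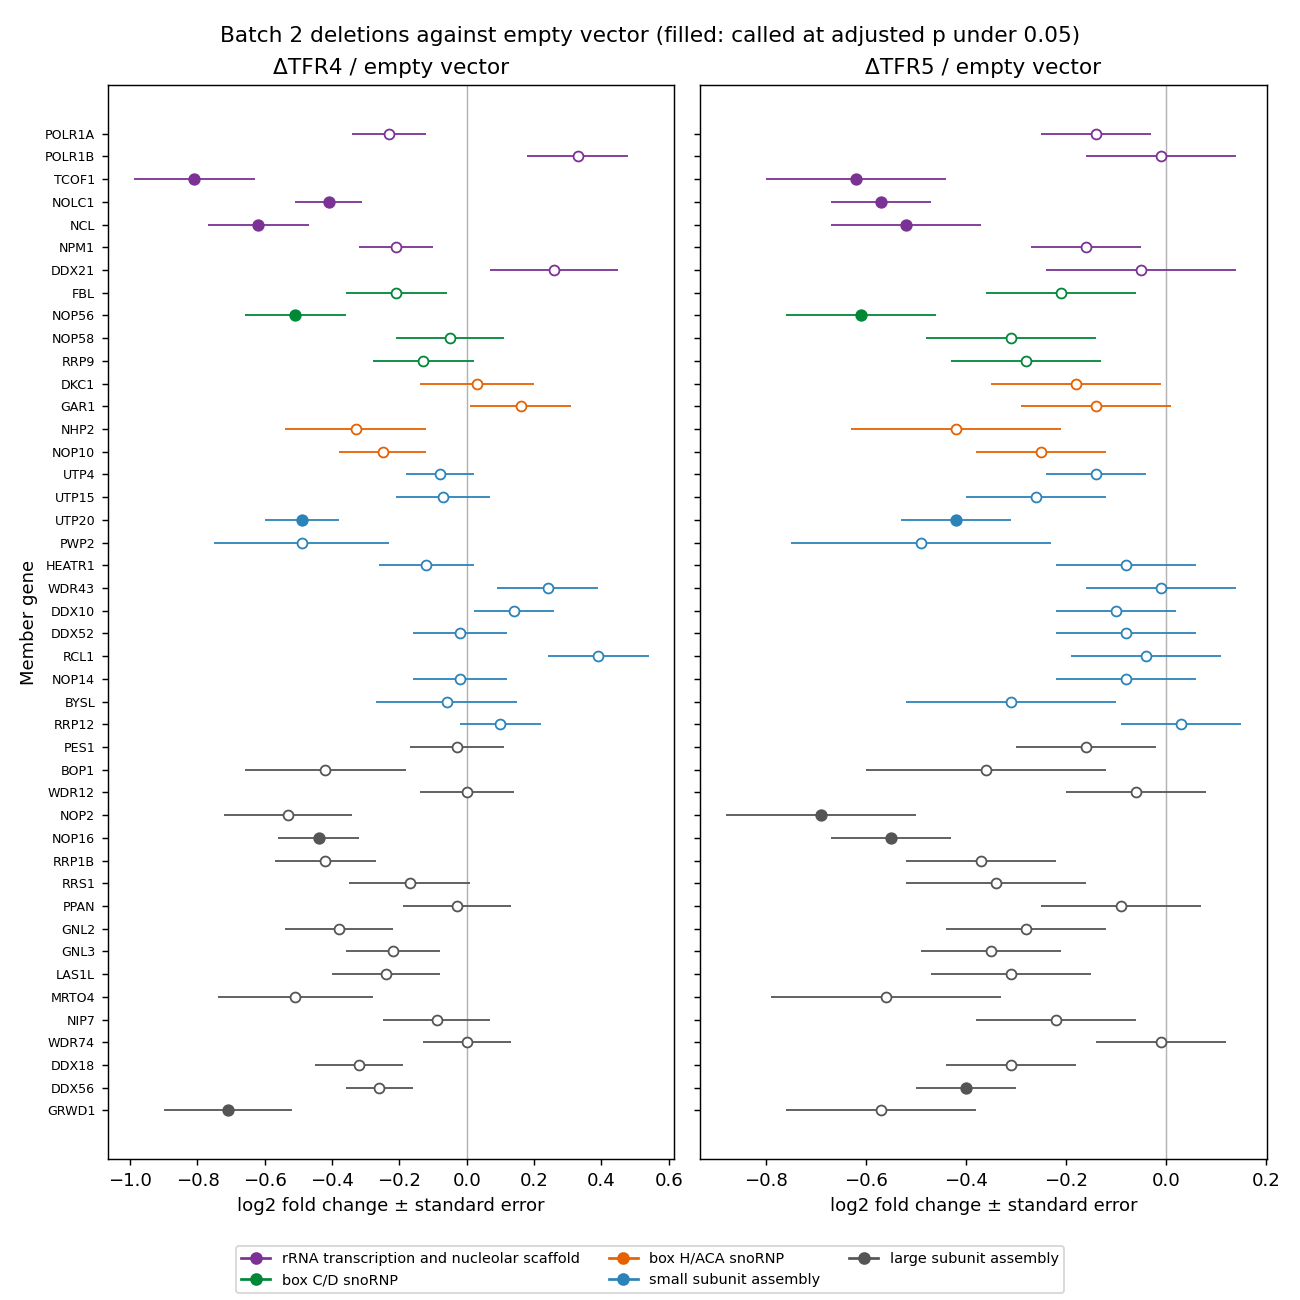
Log2 fold change ± SE of each of the 44 genes with ΔTFR4 and with ΔTFR5 against empty vector in batch 2, with 3 libraries a group; colours give the role and filled points are genes called at an adjusted p under 0.05. The filled points, 7 for ΔTFR4 and 8 for ΔTFR5, lie below 0, and for ΔTFR5 the points of 43 of the 44 genes do.

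Among the genes of ribosomal RNA transcription and the scaffold, 3 of 7 fell in each comparison. TCOF1 read 280.5, 277.9 and 342.8 CPM with empty vector, 168.3, 166.3 and 178.6 with ΔTFR4 (-0.81 ± 0.18, adjusted p = 0.00656) and 192.0, 195.8 and 198.2 with ΔTFR5 (-0.62 ± 0.18, adjusted p = 0.0424), beside 151.7, 247.9 and 274.2 with FL. NOLC1 read 389.2, 373.0 and 415.4 CPM with empty vector, 303.7, 290.8 and 293.7 with ΔTFR4 (-0.41 ± 0.10, adjusted p = 0.0138) and the values above with ΔTFR5 (-0.57 ± 0.10, adjusted p = 0.00651). NCL, the RNA-binding protein nucleolin, read 702.7, 657.0 and 790.2 CPM with empty vector, 505.8, 431.8 and 456.5 with ΔTFR4 (-0.62 ± 0.15, adjusted p = 0.0108) and 491.7, 466.2 and 541.8 with ΔTFR5 (-0.52 ± 0.15, adjusted p = 0.0458), beside 429.6, 617.6 and 646.9 with FL. All 6 deletion libraries of each gene lay under the empty vector. The FL libraries of NOLC1 lay above all of them, and for TCOF1 and NCL the first FL library lay below the deletions and the other two above. The polymerase I subunits were not called: POLR1A had -0.23 ± 0.11, adjusted p = 0.164, with ΔTFR4 and -0.14 ± 0.11, adjusted p = 0.477, with ΔTFR5, and POLR1B had 0.33 ± 0.15, adjusted p = 0.136, and -0.01 ± 0.15, adjusted p = 0.974.

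Of the snoRNP proteins NOP56 fell in both comparisons. It read 168.4, 163.0 and 192.7 CPM with empty vector, 131.1, 119.0 and 117.5 with ΔTFR4 (-0.51 ± 0.15, adjusted p = 0.0261) and 112.5, 127.3 and 103.7 with ΔTFR5 (-0.61 ± 0.15, adjusted p = 0.0237), beside 117.4, 179.9 and 163.0 with FL. FBL, the methyltransferase of the same particle, had -0.21 ± 0.15, adjusted p = 0.348, and -0.21 ± 0.15, adjusted p = 0.412. None of the 4 box H/ACA genes was called, with medians of -0.11 and -0.215. Of the 12 small subunit genes UTP20 was called, which read 124.8, 122.8 and 111.0 CPM with empty vector, the values above with ΔTFR4 (-0.49 ± 0.11, adjusted p = 0.00756) and 87.8, 81.1 and 98.7 with ΔTFR5 (-0.42 ± 0.11, adjusted p = 0.0312). Its deletion libraries lay under all empty vector libraries, and under all FL libraries as well. HEATR1, of the same processome, read 437.0, 422.9 and 391.0 CPM with empty vector, 604.9, 465.4 and 420.2 with FL, 375.5, 402.2 and 370.9 with ΔTFR4 and 379.1, 356.6 and 450.7 with ΔTFR5, and was not called (-0.12 ± 0.14, adjusted p = 0.56, and -0.08 ± 0.14, adjusted p = 0.776).

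Of the 17 large subunit genes, NOP16 and GRWD1 fell with ΔTFR4, and NOP16, DDX56 and NOP2 with ΔTFR5. NOP16 read 52.5, 48.8 and 57.8 CPM with empty vector, 40.9, 37.7 and 38.9 with ΔTFR4 (-0.44 ± 0.12, adjusted p = 0.0171) and 34.5, 35.8 and 38.7 with ΔTFR5 (-0.55 ± 0.12, adjusted p = 0.0131), beside 39.4, 47.1 and 46.8 with FL. GRWD1 had -0.71 ± 0.19, adjusted p = 0.0155, with ΔTFR4 and -0.57 ± 0.19, adjusted p = 0.0713, with ΔTFR5. NOP2, a ribosomal RNA methyltransferase, had -0.53 ± 0.19, adjusted p = 0.0627, and -0.69 ± 0.19, adjusted p = 0.0385. The helicase DDX56 had -0.26 ± 0.10, adjusted p = 0.0879, and -0.40 ± 0.10, adjusted p = 0.0285. A gene called with 1 deletion is not thereby shown to differ between them, and the direct comparison below called none. DDX18 read 186.9, 180.8 and 183.8 CPM with empty vector, 223.7, 172.5 and 170.1 with FL, 151.7, 155.0 and 136.3 with ΔTFR4 and 144.5, 132.1 and 168.9 with ΔTFR5, and was not called (adjusted p = 0.0965 and 0.153). Its deletion libraries all lay below the empty vector libraries.

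**Figure D4:**
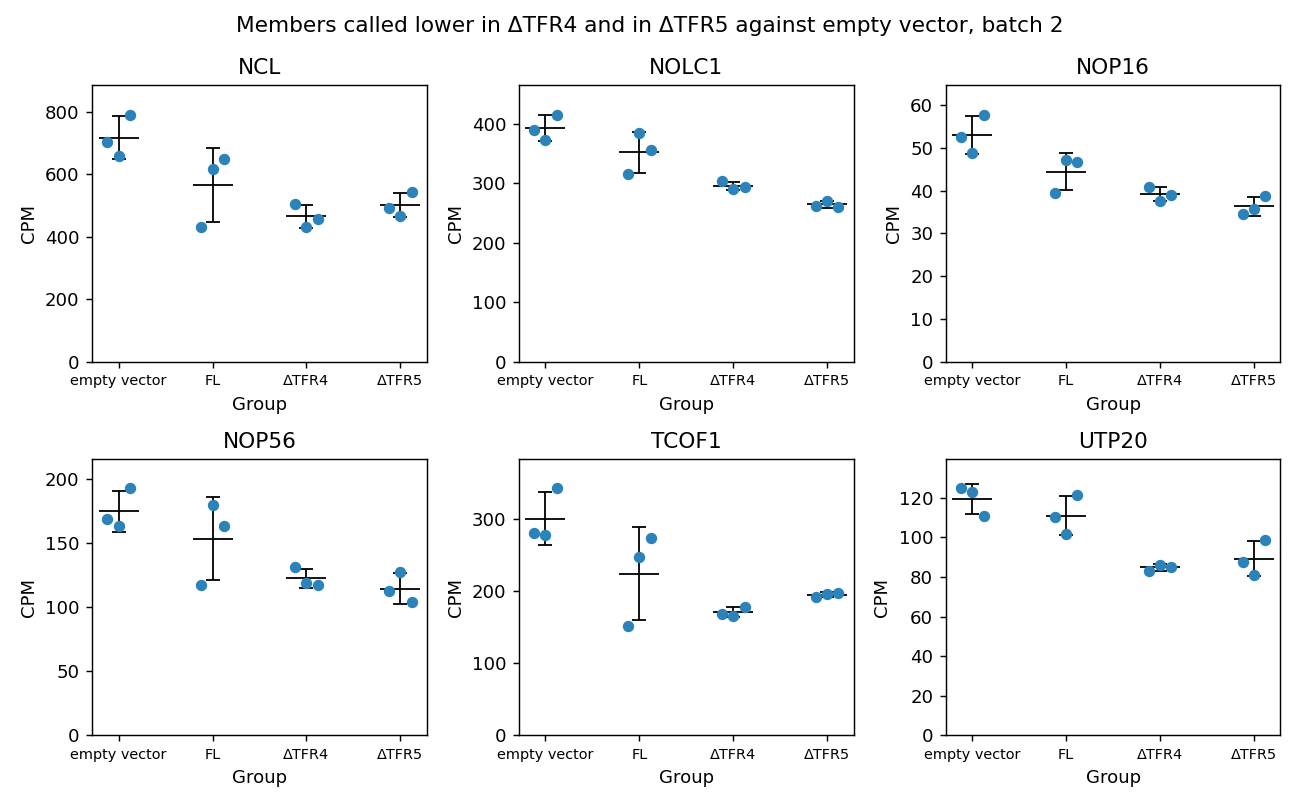
CPM of the 6 genes called lower with ΔTFR4 and with ΔTFR5 against empty vector, in the 12 libraries of batch 2; points are libraries, with the mean ± SD of the 3 libraries of each group. In each panel the 6 deletion libraries lie below all 3 empty vector libraries, and the FL libraries are spread more widely in TCOF1, NCL and NOP56.

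Base composition was set beside these falls in the same way. Over the 18390 genes with a value, rho between change and GC content was 0 for ΔTFR4 and -0.02 for ΔTFR5 against empty vector, and over the 44 it was -0.32 and -0.33. With the GC trend removed, 15 of the 44 were called for ΔTFR4, 14 lower and RCL1 higher, and 12 for ΔTFR5, all lower, beside 32% and 17.6% of all genes. DESeq2 called 10 and 9, all lower (28.5% and 15.6% of all genes). For ΔTFR4 the count was 2 without the second ΔTFR4 library (11.9% of all genes), and 3 without the third ΔTFR4 or the third empty vector library (15% and 12.8%). For ΔTFR5 it was 1 without the first ΔTFR5, the first empty vector or the third empty vector library (2.94%, 3.25% and 2.7% of all genes). It was 2 without the second ΔTFR5 or the second empty vector library (2.27% and 3.45%) and 3 without the third ΔTFR5 library (8.96%). Fitted on the compared groups alone, edgeR called 26 for ΔTFR4, 4 of them higher (51.9% of all genes), and 22 for ΔTFR5, all lower (32.0%). TCOF1 and UTP20 stayed called for ΔTFR4, and NOLC1 for ΔTFR5, whichever of the 6 libraries was left out.

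Other measures differed between these groups too, and their part in the falls was not tested. SLNCR read 27.9 to 30.1 CPM with empty vector, 443.9 to 515.1 with ΔTFR4 and 191.6 to 375.7 with ΔTFR5. Depth was 27461668 to 32304425 with empty vector, 25782487 to 26395014 with ΔTFR4 and 24810090 to 27699281 with ΔTFR5. The top gene of each library held 2.12 to 2.38% of its counts with empty vector, 2.71 to 2.89% with ΔTFR4 and 2.38 to 3.31% with ΔTFR5. The 7 melanocyte lineage markers summed to 146.2 to 157.9 CPM with empty vector, 130.3 to 148.1 with ΔTFR4 and 109.4 to 121.5 with ΔTFR5. Nearly all of that sum was MITF and SOX10, with the others at or below 1.64 CPM and TYR at or below 0.0795 CPM. The 5 immune markers summed to 183.7 to 200.7, 222.6 to 254.3 and 204 to 245.1 CPM, nearly all of it CD68, with CD3E at or below 0.3 CPM. The 7 epithelial markers summed to 585 to 641.6, 419.9 to 533 and 577.6 to 626.4 CPM. Nearly all of it was KRT8 and KRT18, with the others at or below 5.85 CPM and EPCAM at or below 0.74 CPM. In bulk RNA fewer cells of a kind and less RNA per cell cannot be told apart.

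ΔTFR5 against ΔTFR4 called 0 of the 44 with edgeR (0.453% of all genes) and with DESeq2 (1.27%), and 2 of the 44 had an unadjusted p under 0.05 (9.7%). The median was -0.074, beside -0.003 over all genes, and 11 of the 44 had a change above 0 (49.5% of all genes). RCL1, a small subunit factor related to RNA cyclases, read 33.4, 36.0 and 28.8 CPM with ΔTFR5 and 47.4, 43.9 and 40.9 with ΔTFR4 (-0.43 ± 0.15, adjusted p = 0.386). POLR1B read 118.6, 124.1 and 113.0 beside 154.9, 153.7 and 140.6 CPM (-0.34 ± 0.15, adjusted p = 0.496). For each the ΔTFR5 libraries lay under the ΔTFR4 libraries and overlapped with the empty vector libraries.

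The median of the 44 genes in each library shows the set as a whole. In batch 2 the median deviation from the mean over the 12 libraries, on the log2 scale, was 0.136, 0.05 and 0.195 with empty vector, -0.133, 0.196 and 0.067 with FL, 0.036, -0.067 and -0.096 with ΔTFR4 and -0.174, -0.126 and -0.078 with ΔTFR5. All 6 deletion libraries lay below every empty vector library, and FL ran from under every ΔTFR4 library to above every empty vector library. In batch 1 the same medians stayed between -0.072 and 0.043. The median of all tested genes stayed between -0.016 and 0.019 in the 24 libraries.

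**Figure D5:**
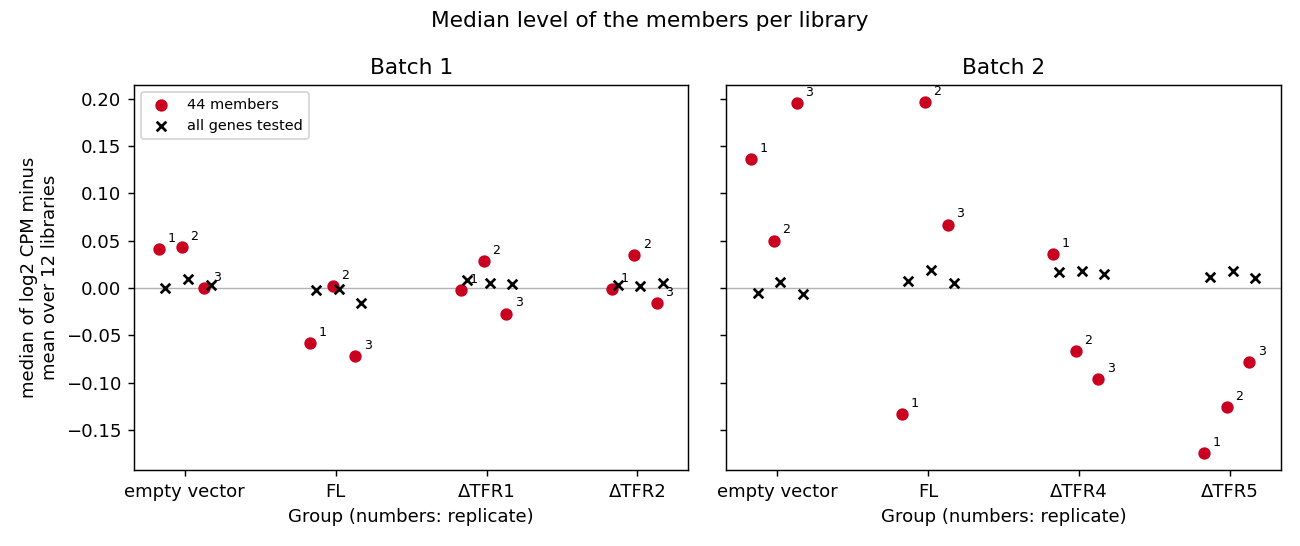
Median over the 44 genes and over all tested genes of log2 CPM minus the mean over the 12 libraries of the batch, for each library by group. The 44-gene medians of ΔTFR5 in batch 2 lie between -0.174 and -0.078, under the empty vector at 0.05 to 0.195, while the medians of all genes stay near 0.

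A further list of 105 genes of the same pathway (13 of polymerase I, 40 of the small subunit, 40 of the large subunit and 12 of the RNA exosome) was counted beside the 44. In batch 1, 39 of the 105 were called for FL against empty vector, 22 higher and 17 lower, 19 for ΔTFR1 against FL (6 higher) and 20 for ΔTFR2 against FL (9 higher). These are 37.1%, 18.1% and 19%, beside 22.7%, 10.1% and 10% of all genes. With FL, the small subunit factor KRR1 read 134.2 ± 14.1 CPM (SD, n = 3 libraries) beside 106.6 ± 7.61 with empty vector (log2 fold change 0.33 ± 0.07, adjusted p = 0.0014 by edgeR). WDR18 of the large subunit fell (-0.32 ± 0.07, adjusted p = 0.00166), and the exosome nuclease DIS3 (0.27 ± 0.06, adjusted p = 0.00173) and the polymerase subunit POLR1F (0.29 ± 0.06, adjusted p = 0.00192) rose. For ΔTFR1 against FL the lowest adjusted p were those of RSL24D1 (-0.25 ± 0.05, adjusted p = 0.00897), KRR1 (-0.30 ± 0.07, adjusted p = 0.0101), UTP11 (-0.26 ± 0.06, adjusted p = 0.0114) and NOL11 (-0.22 ± 0.06, adjusted p = 0.0144). For ΔTFR2 against FL they were those of NOL11 (-0.25 ± 0.06, adjusted p = 0.00957), DIS3 (-0.25 ± 0.06, adjusted p = 0.0108), TEX10 (-0.25 ± 0.06, adjusted p = 0.011) and NOP53 (0.37 ± 0.08, adjusted p = 0.0149). With the GC trend removed, 1, 0 and 0 of the 105 were called in these comparisons, beside 2.32%, 0.119% and 0.175% of all genes. In batch 2, edgeR called 0 of the 105 for FL against empty vector (24 had an unadjusted p under 0.05 and DESeq2 called 6, beside 26.3% and 9.87% of all genes), BRIX1 for ΔTFR4 against FL (-0.56 ± 0.13, adjusted p = 0.0319) and PAK1IP1 for ΔTFR5 against FL (-0.80 ± 0.17, adjusted p = 0.0435). Against empty vector 21 were called for ΔTFR4, 6 higher and 15 lower, and 11 for ΔTFR5, 2 higher and 9 lower. In both directions together these are 20% and 10.5%, beside 23.9% and 10.2% of all genes. Of all genes, 12.5% were higher and 11.4% lower with ΔTFR4, and 5.48% higher and 4.68% lower with ΔTFR5. The medians of the 105 were -0.036 and -0.141, beside 0.017 and 0.022 over all genes.

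The genes were also split by the E-box. For ΔTFR5 against empty vector the 17 genes with CACGTG in the window had a median change of -0.25, with 2 called lower, and the 18 without it -0.20, with 4 called lower. For ΔTFR4 against empty vector the medians were -0.13 (1 lower) and -0.165 (4 lower). The medians with and without it were -0.11 and 0.005 for FL against empty vector in batch 2, -0.02 and -0.155 for ΔTFR4 against FL and -0.19 and -0.25 for ΔTFR5 against FL. In batch 1 they were -0.08 and -0.075 for FL against empty vector, 0.09 and 0.035 for ΔTFR1 against FL and 0.06 and 0.035 for ΔTFR2 against FL. None of these differences was tested. UTP20, whose E-box is printed above, and NCL and NOP56, whose windows have none, all fell with both deletions of batch 2. Some of the genes also carry genes of small nucleolar RNAs: 7 of the 44 (15.9%) hold 25 of them within their bounds on the same strand, against 1.37% of 19969 coding genes. These hosts are NCL, NOP56, NOP58, DKC1, WDR43, PPAN and GNL3. Of them NCL and NOP56 fell with both deletions against empty vector and the other 5 were not called in either.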

How the data were processed

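RNA was depleted of ribosomal RNA and sequenced on a HiSeq instrument, per the labels' protocols. The batch 1 table holds the authors' whole-number counts of reads per gene as deposited, and the batch 2 table holds the authors' estimated counts as deposited, from salmon by the name of the file, which were rounded to whole numbers here. The tools listed in the submitters' processing notes are STAR 2.7.3a, Subread 1.6.2 with its counter featureCounts, DESeq2 1.24.0, FastQC 0.11.5 and cutadapt 2.5, and the builds GRCm38 and GRCh38 stand there with no role. Which release of salmon, which annotation and which strand setting were used is not given in the sources used here. Dates stood in place of 27 symbols in batch 1, none of them a gene described here. The design text says that 6 libraries were re-analysed from an earlier series, without naming them.

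Libraries were grouped by their labels. Each batch was fitted on its own, over all 12 libraries and all genes, in R 4.3.3 with edgeR 4.0.16 (limma 3.58.1): filterByExpr with a minimum count of 10 and total of 15, TMM factors, and the robust quasi-likelihood test. P-values were adjusted by Benjamini-Hochberg over the 14310 and 18763 genes kept, and the SE was taken from the F statistic. CPM uses TMM library sizes, and log2 CPM a prior count of 2. Alternatives were DESeq2 1.42.0, its size factors in edgeR (RLE), no filter, the compared groups alone, a replicate block, each library left out, and offsets that remove each library's lowess trend (span 0.3) on GC content or on GC content and length. On simulated counts for FL against empty vector, 100 genes were changed by 0.5 and 100 by 1 on the log2 scale. The test called 79% and 98% of them in batch 1 (14310 genes) and 1% and 39% in batch 2 (18763 genes). Of the unchanged genes it called 23 in batch 1 and 0 in batch 2. The simulated counts held no GC trend and gave a gene the same spread in every group, unlike the real libraries. Replicates of a group differed by more than counting noise, with a chi-square per gene of 1.49 to 6.97 in batch 1 and 8.13 to 225 in batch 2. In batch 2 the pairs of FL libraries had 62.8 to 225 and the pairs of the other groups 8.13 to 38.9. The spread is estimated over all 12 libraries of a batch, so the SE of a comparison also carries that of groups outside it. Beyond the statement that replicates are biological, nothing says that they came from separate cultures, and p-values measure the spread between these samples.

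The 44 genes and all gene lists were chosen with earlier results of these data known. All 44 could be named. Values in every library are given for up to 6 called genes per direction and main comparison, lowest adjusted p first (the 3 with the lowest p where fewer than 3 were called), for up to 3 per direction elsewhere, and for the gene of each role with the highest mean CPM in batch 1. Of the other pathway genes up to 4 called per main comparison are named.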

Additional observations from a re-analysis of the deposited data

Results flagged for a closer look

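RCL1, the small subunit factor related to RNA cyclases, had changes of opposite sign with FL in the batches. It was picked from the 44 for this pattern. Its log2 fold change against empty vector was -0.18 in batch 1, with all 3 FL libraries below all empty vector libraries (adjusted p = 0.0875 by edgeR), and 0.35 in batch 2, with all 3 above (adjusted p = 0.164). FL lay below in this way for 18.7% of all genes in batch 1, and above for 2206 of 18763 in batch 2. The nearest FL and empty vector libraries of RCL1 read 43.8 and 44.5 CPM in batch 1, and 38.0 and 37.1 in batch 2. Neither change passed the threshold, and the difference between the batches was not tested.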

How the results depend on the processing

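In batch 1, removing the GC trend of each library, the GC and length trends, or the GC trend with a replicate block left 0 of the 44 genes called for FL against empty vector, 0 for ΔTFR1 against FL and 0 for ΔTFR2 against FL. Fitting the compared groups alone called 11, 1 and 2, and DESeq2 called 7 for ΔTFR2 against FL. Leaving out 1 library gave 5 to 24, 0 to 15 and 0 to 20. In batch 2, FL against empty vector called 1 gene with no filter (2.28% of all genes) and 2 by DESeq2 (9.87%). It called 1 with the GC trend removed, 1 with GC and length and 1 with GC and the replicate block (4.08%, 4.48% and 10.1%). With 1 library left out it called 0 to 13 (0.031 to 30.7%). ΔTFR4 against FL called 3 with GC (7.56% of all genes) and 2 by DESeq2 (10.1%). It called 2 with GC and length (7.69%) and 2 with GC and the replicate block (8.27%). With 1 library left out it called 0 to 8 (0.406 to 11.4%). ΔTFR5 against FL called 3 with no filter (1.22% of all genes), 8 with GC (4.61%) and 7 by DESeq2 (7.54%). It called 5 with GC and length (4.32%) and 6 with GC and the replicate block (4.06%). With 1 library left out it called 0 to 13 (0.098 to 17.9%). Against empty vector, ΔTFR4 called 15, 17 and 14 with the 3 trend corrections in the same order, 26 with the compared groups alone (4 higher and 22 lower, 51.9% of all genes) and 2 to 6 with 1 library left out. ΔTFR5 against empty vector called 14 with GC and length (17.7% of all genes) and 15 with GC and the replicate block (18.9%). It called 22 with the compared groups alone (all lower, 32.0% of all genes) and 1 to 3 with 1 library left out (2.27 to 8.96%). ΔTFR5 against ΔTFR4 called 2 with the compared groups alone (6.33%). Left-out fits have fewer samples and share the spread of the other groups. For the other settings the cause was not tested.

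Same-numbered libraries correlated at -0.127 to 0.18 in batch 1 and -0.142 to 0.197 in batch 2 in their deviations from the group means. Libraries with different numbers correlated at -0.163 to 0.144 and -0.253 to 0.162. Whether same-numbered libraries share more than a number was not tested. The replicate block alone called 23, 8 and 17 genes in the 3 comparisons with FL in batch 1. Calls over all genes also rose there, to 26%, 15.6% and 15.2% from 22.7%, 10.1% and 10% without the block. In batch 2 the block called 0 in the comparisons with FL (2.13%, 4.47% and 0.906% of all genes). It called 8 and 8 for ΔTFR4 and ΔTFR5 against empty vector (24.1% and 11% of all genes). Of the 45 changes of single genes followed through these settings, none reversed in sign. With the GC trend removed 30 of them lost their call and 4 gained one, and with the compared groups alone 18 lost it. In the fits with 1 library left out, 98 lost the call, 12 gained it and 160 stayed the same. For the other named values reversals were not counted. The median of the 44 reversed for ΔTFR2 against FL, to -0.005 with GC and length, and for ΔTFR2 against ΔTFR1, from 0.003 to -0.004 without the second ΔTFR2 library.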
